A study of Mus musculus with 6 samples.

Results

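The genes described here are 10 immediate early and AP-1 genes: *Fos*, *Fosb*, *Fosl1* and *Fosl2* of the FOS family, *Jun*, *Junb* and *Jund* of the JUN family, and *Egr1*, *Ier2* and *Ier3*. They were taken by symbol from a table of raw read counts for 54532 genes. All 10 were found there, and all 10 were among the 19372 genes that passed the filter on low counts. RNA-seq had been performed on whole embryonic mouse hearts at E9.5, with 1 heart per library, 3 *Smyd1-KO* hearts and 3 wild-type (WT) hearts. *Smyd1* encodes a muscle lysine methyltransferase, and the *Smyd1-KO* embryos were homozygous for a conventional null allele, present in every cell of the embryo and obtained from *Smyd1*+/- parents. No treatment was given, and embryos of both sexes were used without the sex of each heart being stated. The contrast asks how loss of SMYD1 changed gene expression in the heart at this stage.

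Libraries held 48627825 to 64217529 counted reads. The 12 cardiomyocyte markers examined were read in the hearts of both genotypes, with a summed level of 9658 to 19990 CPM (reads of a gene relative to TMM-scaled depth) in *Smyd1-KO* and 12807 to 21382 CPM in WT hearts, and 0 of the 12 were called changed by edgeR (2 at an unadjusted *P* under 0.05). *Smyd1* itself had levels of 101, 222 and 206 CPM in *Smyd1-KO* hearts 1, 2 and 3, against 414, 379 and 270 CPM in WT hearts 1, 2 and 3. All *Smyd1-KO* hearts were below all WT hearts. The log2 fold change was -1.01, with an adjusted *P* of 0.0973 by edgeR, and reads remained in every *Smyd1-KO* heart. *Smyd1-KO* heart 1 stood apart from the others. It had the lowest cardiomyocyte marker sum, 9658 CPM, and 7 neural tube and neural crest genes, chosen after their values were seen, summed to 239 CPM there against 20.6 to 73.8 CPM in the other hearts. *Pax6*, a neural tube transcription factor, was at 34.3 CPM in that heart and at 0.806 to 4.02 CPM elsewhere. The calls of the 10 genes and of the related lists are therefore also given without it. Whole hearts were measured, so a lower value from fewer cells of a type and one from less RNA per cell cannot be told apart, and the same holds for a higher value.

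Immediate early genes are transcribed within minutes of a stimulus without new protein synthesis, because the factors that switch them on are already in the cell. Growth factor, stretch and stress signals reach them mainly through MAP kinases acting on SRF and its ETS partners and through CREB. FOS and JUN proteins share a basic leucine zipper (bZIP). FOS proteins must pair with a JUN protein to bind DNA, whereas JUN proteins can also pair with each other, and the pairs form the AP-1 transcription factor. AP-1 binds the sequence TGACTCA and, with ATF partners, TGACGTCA. EGR1 is a zinc finger transcription factor, IER2 is a small nuclear protein, and IER3 is a small stress-induced protein that modulates ERK signalling and cell survival. In heart muscle, *Fos*, *Jun* and *Egr1* are classic early responders to mechanical load and growth stimuli.

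Promoter sequences were available from RefSeq (GRCm38.p6) for 7 of the 10 genes. The stretches upstream of the start sites of *Fos*, *Jun* and *Ier3* are shown, because *Ier3* was the most increased of the 10, *Fos* was called higher, and *Jun*, the partner of FOS, was not called. Each is written 5′ to 3′ on the strand of its gene, and capitals mark the motif matches described after them. *Fos*, chr12:85473640-85473889, plus strand, ends at the base before the start site. *Jun*, chr4:95052223-95052472, minus strand, also ends there. *Ier3*, chr17:35821463-35821683, plus strand, ends 30 bases before the RefSeq start site so that no transcribed base of the annotation is included.
Fos: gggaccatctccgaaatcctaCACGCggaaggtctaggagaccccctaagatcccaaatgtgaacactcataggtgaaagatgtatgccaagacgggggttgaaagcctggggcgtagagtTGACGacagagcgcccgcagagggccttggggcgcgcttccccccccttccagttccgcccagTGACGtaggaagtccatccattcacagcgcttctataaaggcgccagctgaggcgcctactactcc
Jun: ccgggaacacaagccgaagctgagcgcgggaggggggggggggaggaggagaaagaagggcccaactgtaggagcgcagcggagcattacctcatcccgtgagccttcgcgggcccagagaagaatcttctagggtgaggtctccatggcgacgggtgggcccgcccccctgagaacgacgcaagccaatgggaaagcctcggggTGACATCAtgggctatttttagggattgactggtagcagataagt
Ier3: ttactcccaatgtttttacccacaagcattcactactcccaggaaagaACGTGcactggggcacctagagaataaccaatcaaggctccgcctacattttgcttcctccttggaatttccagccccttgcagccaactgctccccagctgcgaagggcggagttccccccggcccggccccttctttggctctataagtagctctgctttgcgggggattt

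The motifs were searched on both strands from 250 bases before to 50 bases after each start site. The AP-1 site TGACTCA was found in 0 of the 7 promoters and in 5.2% of all 32817 RefSeq promoters of that length. The variant TGACATCA was found in *Jun* alone, at positions -45 to -38 from the start site, and in 3.62% of all promoters. The cyclic AMP response element TGACGTCA was in 0 of the 7 and in 1.79% of all. Its core TGACG, which lies within the full element, was in *Fos* at -129 to -125 and at -66 to -62, in *Fosb* and in *Junb*, and in 20.8% of all promoters. The EGR motif GCGNGGGCG was in *Fosb* and *Fosl2* and in 5.56% of all. The hypoxia response core ACGTG was in *Ier3* at -202 to -198 and in the window used for *Jund*, and in 19.6% of all, and the related GCGTG was in 3 of the 7, *Fos* among them in reverse orientation at -229 to -225, and in 32.4% of all. The CArG box that SRF binds was found in 0 of the 7 and in 1.63% of all. Sequence more than 250 bases before the start site was not searched, and *Egr1* was not among the 7. The search therefore cannot tell whether *Fos*, *Egr1* or the other genes have an SRF site outside the stretches searched. The RefSeq start used for *Jund* lies 1210 bases from the start of the gene in GENCODE, so its window is not next to the annotated gene. These matches are descriptions of sequence and do not show binding.

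Of the 10 genes, 4 were called higher in *Smyd1-KO* hearts (*Fos*, *Fosl2*, *Egr1* and *Ier3*) and 0 were called lower. To be called, a gene had to reach an adjusted *P* under 0.05 by edgeR, corrected over all 19372 genes, and to differ by 0.5 or more on the log2 scale in either direction. Among all genes tested, 2.86% were called higher, 1.42% lower and 4.28% in either direction. At an unadjusted *P* under 0.05 by edgeR, 6 of the 10 were higher and 0 lower, against 13.1% higher and 25.1% in either direction among all genes. DESeq2 called 5 of the 10, all higher, and 9.21% of all genes it tested. In 6 of the 10 every *Smyd1-KO* heart was above every WT heart, which held for 15.9% of all genes tested (31.3% did not overlap in either direction), and in the other 4 the genotypes overlapped. The median log2 fold change of the 10 was 0.791, against -0.00255 over all genes tested.

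**Figure D1:**
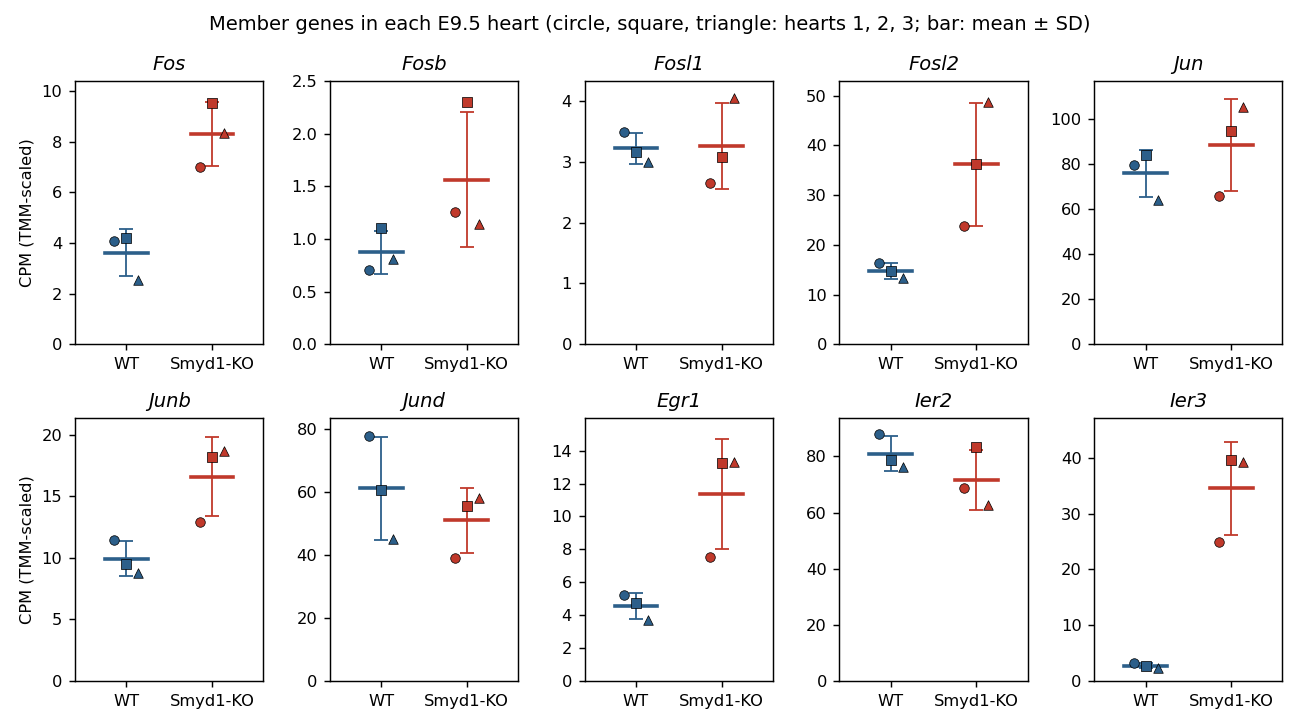
Level of each of the 10 genes in CPM, with axes that start at 0, 1 point per heart (WT blue, *Smyd1-KO* red) and bars for the mean ± SD of 3 hearts. *Ier3* lay between 24.8 and 39.6 CPM in *Smyd1-KO* and between 2.39 and 3.22 CPM in WT hearts, whereas *Fosl1*, *Jun*, *Jund* and *Ier2* overlapped between genotypes.

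*Fos* (chr12:85473890-85477273, GRCm38, plus strand) encodes the founding FOS protein. Its levels were 7.01, 9.52 and 8.34 CPM in *Smyd1-KO* hearts 1, 2 and 3, against 4.08, 4.21 and 2.55 CPM in WT hearts 1, 2 and 3. Every *Smyd1-KO* heart was above every WT heart, and WT heart 3 was the lowest of all. *Fos* rose by a log2 fold change of 1.20 (SE 0.237, 95% interval 0.64 to 1.75), a 2.30-fold higher level with an adjusted *P* of 0.0356 by edgeR.

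*Fosl2* (chr5:32135801-32157842, plus strand) encodes FRA2, a FOS protein without the strong transactivation domain of FOS. Its levels were 23.9, 36.2 and 48.7 CPM in *Smyd1-KO* hearts 1 to 3 and 16.4, 14.7 and 13.3 CPM in WT hearts 1 to 3. The *Smyd1-KO* hearts spread more than the WT hearts, with an SD of 12.4 against 1.57 CPM, yet did not overlap them. The log2 fold change was 1.29 (SE 0.245, 95% interval 0.72 to 1.87) with an adjusted *P* of 0.0321 by edgeR.

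*Fosb* (chr7:19302696-19310051, minus strand), a close relative of *Fos* and the least abundant of the 10, had 61, 136 and 65 reads in *Smyd1-KO* and 42, 70 and 54 reads in WT hearts. On the CPM scale these were 1.25, 2.30 and 1.14 against 0.705, 1.10 and 0.811. The genotypes did not overlap, but *Smyd1-KO* heart 3 and WT heart 2 nearly met. The log2 fold change of 0.84 had a 95% interval of 0.04 to 1.64 and an adjusted *P* of 0.182 by edgeR, so *Fosb* was not called.

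*Fosl1* (chr19:5447547-5455946, plus strand), which encodes FRA1, was the FOS family gene with the smallest difference. It was at 2.65, 3.08 and 4.05 CPM in *Smyd1-KO* and at 3.49, 3.17 and 3.00 CPM in WT hearts, so the WT values lay inside the *Smyd1-KO* range. The log2 fold change was 0.02 (95% interval -0.47 to 0.51, adjusted *P* = 0.968 by edgeR). This value is uncertain, because 1163 of the 2033 exonic bases of *Fosl1* overlap *Ccdc85b* on the opposite strand. *Ccdc85b* had 2034 to 3039 reads per heart, and whether counting used strand was not given in the sources used here.

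Among the JUN family, *Junb* showed the clearest difference and 0 of 3 genes were called by edgeR, with 1 at an unadjusted *P* under 0.05 and 1 called by DESeq2, *Junb* in both cases. *Junb* (chr8:84974484-84978718, minus strand), a JUN protein with weaker transactivation than JUN, was at 12.9, 18.2 and 18.6 CPM in *Smyd1-KO* and at 11.5, 9.53 and 8.78 CPM in WT hearts. The genotypes did not overlap, and *Smyd1-KO* heart 1 was the nearest to WT. Its log2 fold change was 0.74 (SE 0.184, 95% interval 0.31 to 1.17) with an adjusted *P* of 0.0640 by edgeR, and 0.00314 by DESeq2. An overlap of 173 bases with *Prdx2* on the opposite strand, an abundant gene with 19611 to 28799 reads per heart, limits this value.

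*Jun* (chr4:95049034-95052222, minus strand), a gene of 1 exon, encodes the founding JUN protein, a partner of FOS. It was at 65.7, 94.9 and 105 CPM in *Smyd1-KO* and at 79.4, 84.1 and 64.0 CPM in WT hearts. The genotypes overlapped, with a log2 fold change of 0.22 (95% interval -0.21 to 0.66, adjusted *P* = 0.490 by edgeR). *Jund* (chr8:70698949-70700616, plus strand), the JUN protein that many resting cells express steadily, was at 39.1, 55.6 and 58.2 CPM against 77.7, 60.8 and 45.1 CPM. It also overlapped, with a log2 fold change of -0.26 (95% interval -0.78 to 0.26, adjusted *P* = 0.501 by edgeR). The intervals of *Jun* and *Jund* leave room for changes of more than 0.5 in size on the log2 scale, in opposite directions.

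*Ier3* (chr17:35821684-35822923, plus strand), a gene of 2 exons, rose the most of the 10. It had 1208, 2340 and 2239 reads in *Smyd1-KO* and 192, 165 and 159 reads in WT hearts, or 24.8, 39.6 and 39.2 CPM against 3.22, 2.60 and 2.39 CPM. The lowest *Smyd1-KO* heart, heart 1, was far above the highest WT heart. The log2 fold change of 3.66 (SE 0.230, 95% interval 3.12 to 4.20) corresponded to a 12.6-fold higher level, with an adjusted *P* of 0.000869 by edgeR.

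*Egr1* (chr18:34859823-34864984, plus strand) was at 7.51, 13.2 and 13.3 CPM in *Smyd1-KO* and at 5.24, 4.76 and 3.71 CPM in WT hearts. *Smyd1-KO* heart 1 lay between the other *Smyd1-KO* hearts and the WT hearts, and the genotypes did not overlap. *Egr1* rose by a log2 fold change of 1.31 (SE 0.260, 95% interval 0.70 to 1.92, adjusted *P* = 0.0357 by edgeR). *Ier2* (chr8:84661331-84662852, minus strand), by contrast, was at 68.7, 83.4 and 62.6 CPM in *Smyd1-KO* and at 88.0, 78.8 and 76.3 CPM in WT hearts. These ranges overlapped, and the log2 fold change of -0.18 had a 95% interval of -0.46 to 0.10 and an adjusted *P* of 0.395 by edgeR.

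**Figure D2:**
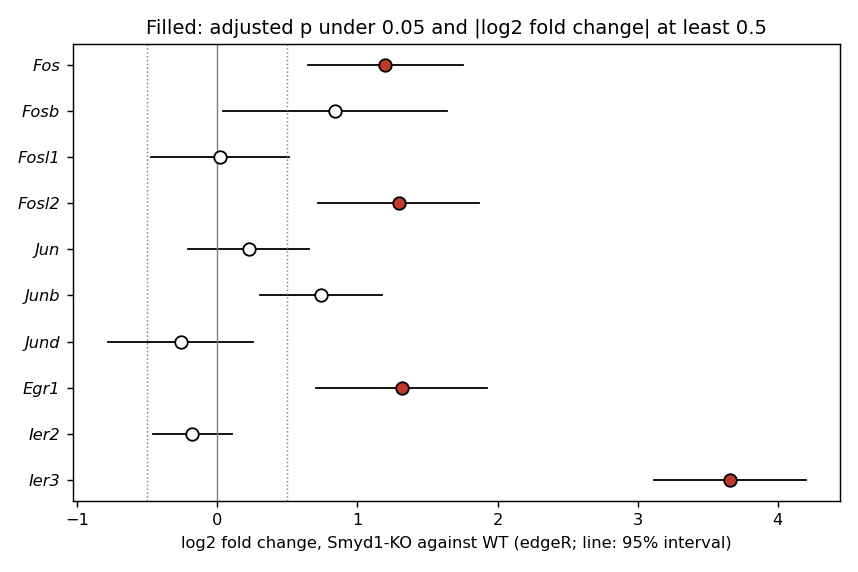
Log2 fold change of each gene, *Smyd1-KO* minus WT, with its 95% interval from edgeR, the zero line and dotted lines at 0.5 in either direction; called genes are filled. The intervals of *Fos*, *Fosb*, *Fosl2*, *Junb*, *Egr1* and *Ier3* lie above 0, and *Ier3* at 3.66 lies far from the rest.

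The calls of *Fos*, *Fosl2* and *Egr1* were lost in 5 of 6 leave-one-out fits. Without *Smyd1-KO* heart 1, *Fos* (log2 fold change 1.31, adjusted *P* = 0.0273 by edgeR), *Fosl2* (1.52, 0.00426), *Egr1* (1.54, 0.00713) and *Ier3* (3.85, 0.000150) were called and *Junb* (0.89, 0.0206) joined them, while 1256 genes were called in all. Without *Smyd1-KO* heart 2, *Smyd1-KO* heart 3, WT heart 1, WT heart 2 or WT heart 3, *Ier3* was the only one of the 10 called, and the number of genes called in all fell to 248, 344, 501, 97 and 171. Over these 6 fits the log2 fold change was 1.004 to 1.32 for *Fos*, 1.03 to 1.52 for *Fosl2*, 1.19 to 1.54 for *Egr1* and 3.55 to 3.85 for *Ier3*. The adjusted *P* by edgeR reached 0.117 for *Fos*, 0.139 for *Fosl2*, 0.144 for *Egr1* and 0.0149 for *Ier3*.

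**Figure D3:**
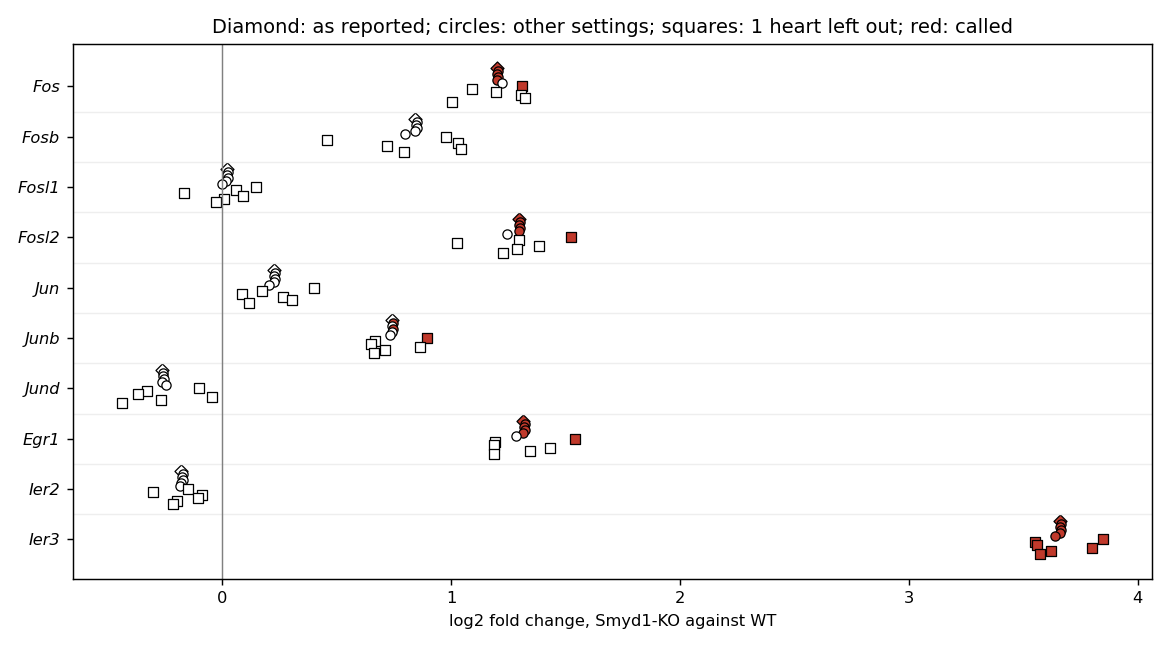
Log2 fold change of the 10 genes as reported (diamonds), under other settings (circles; the setting with no fold limit has the same values and is not drawn) and without 1 heart (squares), in red where the gene was called. *Ier3* is red throughout at 3.55 to 3.85, while *Fos*, *Fosl2* and *Egr1* are red in 1 of 6 squares each.

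Heart by heart, *Smyd1-KO* heart 1 was the lowest *Smyd1-KO* heart for 8 of the 10 genes, and WT heart 3 was the lowest WT heart for 9 of the 10. Relative to the WT mean, the median log2 difference over the 10 genes was 0.457 in *Smyd1-KO* heart 1, 1.09 in heart 2 and 0.698 in heart 3. The same median over all genes tested was -0.00309, -0.000963 and 0.000677. The *Smyd1-KO* heart with the neural signal and the lowest cardiomyocyte sum was thus the one with the smallest median difference from WT. WT heart 3 likewise had the lowest cardiomyocyte marker sum of its genotype, 12807 CPM against 21382 and 19941 CPM in WT hearts 1 and 2. The part of cardiomyocyte content in these values was not tested.

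Levels of different genes were compared as CPM per kilobase of exon. In WT hearts the order was *Ier2* (53.2 ± 4.05 CPM per kb, SD, n = 3), *Jund* (36.7 ± 9.77), *Jun* (23.8 ± 3.30), *Junb* (4.32 ± 0.605), *Ier3* (2.42 ± 0.384), *Fosl1* (1.58 ± 0.122), *Fos* (1.54 ± 0.391), *Fosl2* (1.53 ± 0.163), *Egr1* (1.02 ± 0.174) and *Fosb* (0.140 ± 0.0330). *Fosl1*, *Fos* and *Fosl2* overlapped each other, *Fos* also overlapped *Egr1*, and no other genes next to each other in this order overlapped. The place of *Fosl1* is uncertain in both genotypes, because 1163 of its 2033 exonic bases overlap *Ccdc85b*. Lengths joined the exons of all annotated transcripts of a gene, whichever were expressed. Every JUN family mean was above every FOS family mean. In *Smyd1-KO* hearts *Ier3* moved from rank 5 to rank 3, at 30.5 ± 7.43 CPM per kb, where it overlapped *Jund* (30.6 ± 6.20) and *Jun* (27.8 ± 6.42). *Junb* (7.20 ± 1.40) came next without overlap, and *Fosl2* (3.74 ± 1.28) and *Fos* (3.53 ± 0.534) overlapped each other. *Egr1* (2.53 ± 0.743) followed and overlapped both *Fosl2* above it and *Fosl1* (1.60 ± 0.351) below it. *Ier2* (47.0 ± 7.04) stayed first and *Fosb* (0.251 ± 0.102) last.

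The makeup of the FOS and JUN families was also described on this per-length scale. The 4 FOS family genes summed to 6.95, 9.67 and 10.7 CPM per kb in *Smyd1-KO* and to 5.26, 5.04 and 4.06 in WT hearts, without overlap. *Fosl1* made up 32.7, 30.9 and 36.4% of the family sum in WT hearts and 18.8, 15.7 and 18.5% in *Smyd1-KO* hearts, while *Fosl2* made up 32.2, 30.1 and 33.7% in WT and 35.5, 38.7 and 46.8% in *Smyd1-KO* hearts. The share of *Fos* overlapped, at 33.0, 35.5 and 26.7% in WT and 42.9, 41.9 and 33.0% in *Smyd1-KO* hearts. The mean level of *Fosl1* itself was 1.58 in WT and 1.60 CPM per kb in *Smyd1-KO* hearts, so its smaller share went with the larger sum of the family, and all these shares carry the uncertainty from its overlap with *Ccdc85b*. The JUN family sum overlapped, at 49.7, 71.0 and 76.0 CPM per kb in *Smyd1-KO* and 76.5, 67.0 and 50.9 in WT hearts. Within it, *Junb* took 11.3, 11.2 and 10.7% in *Smyd1-KO* and 6.53, 6.19 and 7.50% in WT hearts, and *Jund* took 47.3, 46.9 and 45.9% against 60.9, 54.4 and 53.1%. These shares are descriptions of 3 hearts per genotype and were not tested.

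**Figure D4:**
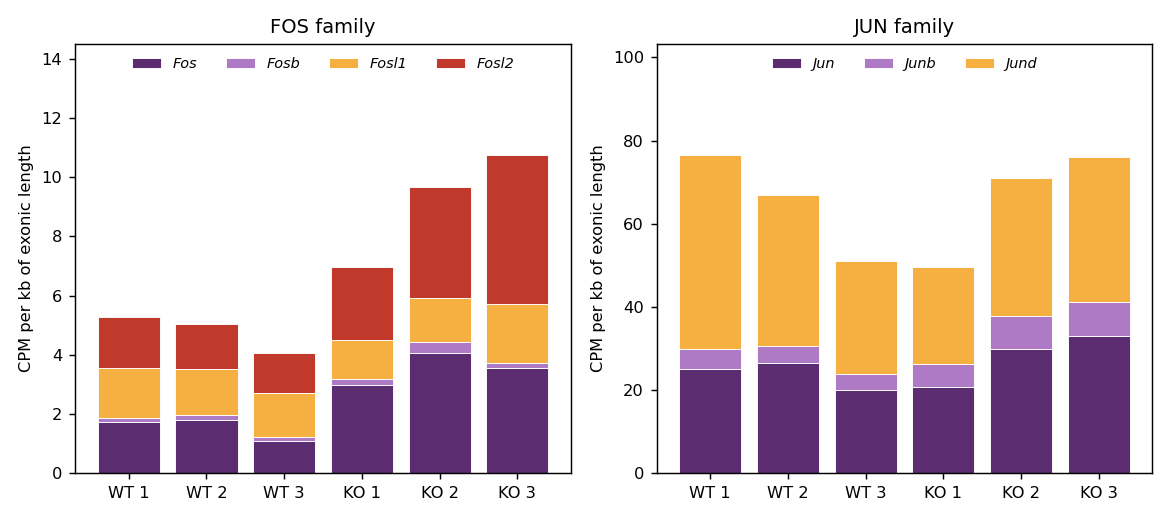
Level of the FOS family and JUN family genes in CPM per kilobase of exon, stacked by gene for each heart, with an axis of its own for each family. The FOS family bars reach 6.95 to 10.7 in *Smyd1-KO* and 4.06 to 5.26 in WT hearts, and the JUN family bars overlap between genotypes.

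Of 32 other immediate early genes, all tested, 3 were called higher and 1 lower, and their median log2 fold change was 0.234. For comparison with this list and those below, 2.86% of all genes tested were called higher and 1.42% lower. *Nr4a3*, an orphan nuclear receptor induced by many stimuli, rose by a log2 fold change of 2.67 (SE 0.273, adjusted *P* = 0.00508 by edgeR). Its levels were 5.53, 4.38 and 7.50 CPM in *Smyd1-KO* hearts, against 1.06, 0.725 and 0.946 CPM in WT hearts. It stayed called whichever heart was left out. Its relative *Nr4a1* (0.84, adjusted *P* = 0.0208) and the growth regulator *Myc* (0.51, 0.0428) rose less, from 20.8 ± 2.73 to 37.3 ± 4.75 CPM and from 33.6 ± 1.88 to 47.9 ± 5.70 CPM (SD, n = 3). *Nr4a1* was called in 2 and *Myc* in 0 of the 6 fits that left out a heart. *Klf2*, a factor induced by blood flow in endothelium, fell by 1.77 on the log2 scale (adjusted *P* = 0.0158 by edgeR), from 14.6 ± 1.67 CPM in WT to 4.28 ± 1.45 CPM in *Smyd1-KO* hearts, and was called in 2 of those 6 fits. The endothelial marker sum overlapped between genotypes, at 765 to 1163 CPM in *Smyd1-KO* and 757 to 928 CPM in WT hearts. Its members differed in direction, however. At an unadjusted *P* under 0.05 by edgeR 3 of 10 were higher and 2 lower, and 0 were called. The 2 lower were the endocardial genes *Nfatc1* (log2 fold change -0.83, adjusted *P* = 0.0687) and *Npr3* (-0.52, 0.0567), whereas the VEGF receptor gene *Kdr* had a value of 0.70 (0.0569), all by edgeR and chosen after their values were seen. The part of endothelial cells in the fall of *Klf2* was not tested. Nor was that of erythroid cells, whose marker sum was 28.1 to 283 CPM in *Smyd1-KO* and 750 to 1002 CPM in WT hearts.

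The closest relatives of AP-1 outside the FOS and JUN families are the bZIP factors of the ATF, BATF and MAF groups. Of 14 listed, 12 were tested and 1 was called. *Maff*, a small MAF protein without a transactivation domain, rose by a log2 fold change of 1.40 (SE 0.221, adjusted *P* = 0.0191 by edgeR), from 16.5 ± 4.61 to 43.6 ± 6.66 CPM, and was called in 3 of the 6 fits without a heart. The median of the 12 was 0.325. *Jdp2*, a JUN dimerization partner and repressor of AP-1, was chosen after its values were seen. Its levels were 18.9, 32.7 and 38.6 CPM in *Smyd1-KO* hearts, against 15.7, 14.7 and 13.3 CPM in WT hearts (log2 fold change 1.05, adjusted *P* = 0.0560 by edgeR).

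Of 26 kinases and factors upstream of these genes, all tested, 1 was called and the median log2 fold change was 0.0177. Among all genes tested, 4.28% were called in either direction. *Map3k1*, which encodes the kinase MEKK1 at the head of the JNK cascade, rose by 0.72 (SE 0.0827, adjusted *P* = 0.00697 by edgeR), from 62.3 ± 4.98 to 102 ± 3.31 CPM, and was called in 5 of the 6 fits without a heart. Of 20 feedback inhibitors, all tested, 2 were called higher and 17 had a positive log2 fold change, with a median of 0.248, against 49.8% positive among all genes. *Dusp4*, a nuclear phosphatase that inactivates MAP kinases, rose by 0.64 (adjusted *P* = 0.0431 by edgeR), from 88.2 ± 13.9 to 138 ± 15.3 CPM. *Nab2*, a corepressor of EGR proteins that EGR1 itself induces, rose by 0.84 (adjusted *P* = 0.0368 by edgeR), from 20.4 ± 2.61 to 36.6 ± 7.47 CPM. Without single hearts, *Dusp4* was called in 2 and *Nab2* in 1 of 6 fits. Without *Smyd1-KO* heart 1, edgeR called 5 other immediate early genes (4 higher, 1 lower), 2 bZIP factors, 3 upstream genes and 2 feedback inhibitors, the last 3 groups all higher. In that fit 1256 of all 20009 genes tested were called.

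Of 15 listed AP-1 target genes, which encode proteases, cytokines and growth regulators, 9 were tested and 3 had no read in any heart. Among the 9 tested, 2 had a positive log2 fold change and the median was -0.221. At an unadjusted *P* under 0.05 by edgeR, 1 was higher and 2 were lower. *Plau*, the urokinase plasminogen activator, was called higher (log2 fold change 1.36, SE 0.290, adjusted *P* = 0.0431 by edgeR), from 3.09 ± 1.05 to 7.97 ± 1.46 CPM, but in 0 of the 6 fits without a heart. Without *Smyd1-KO* heart 1 the value for *Plau* was 1.24 on the log2 scale, with an adjusted *P* of 0.0561 by edgeR. The 2 lower were *Plaur* (log2 fold change -0.71, adjusted *P* = 0.0701 by edgeR) and *Hbegf* (-0.79, 0.107), and neither was called. Of 11 heat shock genes, chaperones and their regulator that protein damage induces, 0 were called higher by edgeR, with 2 higher and 3 lower at an unadjusted *P* under 0.05. DESeq2, and edgeR without *Smyd1-KO* heart 1, each called 2 higher and 1 lower. The 2 higher by edgeR over all hearts, chosen after their values were seen, were the near-identical inducible HSP70 genes *Hspa1a* and *Hspa1b*, whose reads the counting may have split. *Hspa1a* was at 2.94, 7.07 and 5.15 CPM in *Smyd1-KO* hearts, against 3.07, 1.70 and 2.67 CPM in WT (log2 fold change 1.03, adjusted *P* = 0.135 by edgeR). *Hspa1b* was at 7.86, 16.1 and 12.9 CPM, against 6.88, 4.58 and 7.75 CPM (log2 fold change 0.94, adjusted *P* = 0.113 by edgeR). *Hsph1*, a large chaperone, was called lower (-0.59, adjusted *P* = 0.0462 by edgeR), from 328 ± 47.7 to 218 ± 20.3 CPM, and in 1 of the 6 fits without a heart. The heat shock sums, in which these low genes weigh little, overlapped, at 5732 to 6384 CPM in *Smyd1-KO* and 5560 to 6568 CPM in WT hearts.

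**Figure D5:**
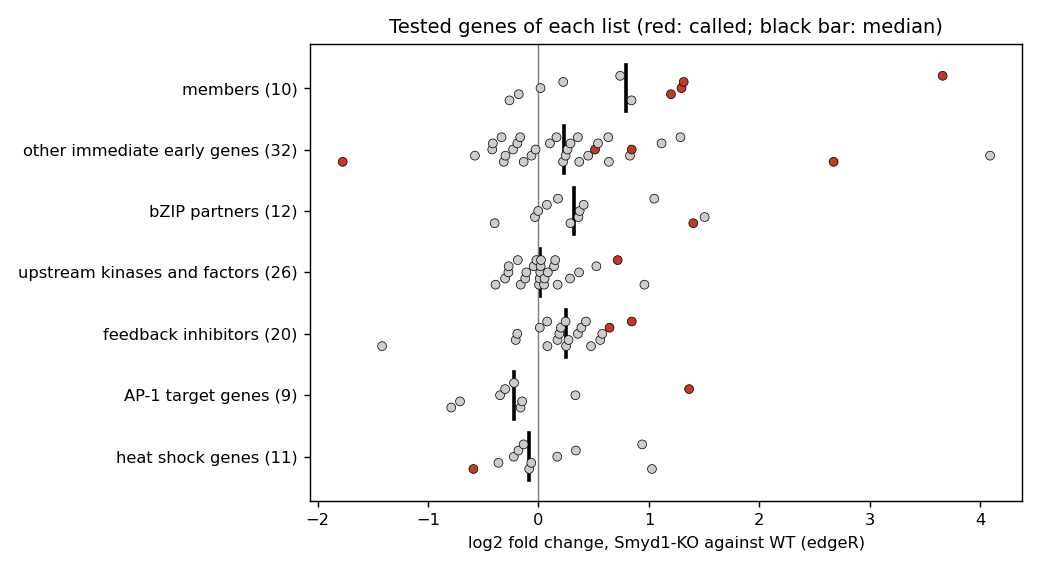
Log2 fold change, *Smyd1-KO* minus WT, of every tested gene of the 10 and of each related list, with 1 point per gene (red where called) and a black line at each median. The median was 0.791 for the 10 genes, between -0.221 and 0.325 for the lists, and -0.00255 over all genes tested.

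The genes whose profile over the 6 hearts was most like that of *Fos* were sought by the mean absolute difference in log2 CPM after centring, among 2586 candidates. They were *Macrod1* (0.0689), *Pold4* (0.098) and *Pik3ip1* (0.113). *Pold4* (log2 fold change 1.06, adjusted *P* = 0.0326 by edgeR) and *Pik3ip1* (1.03, 0.0155) were called higher, and *Macrod1* (1.07, 0.0569) was not called. Among the 10 genes, *Egr1* was the nearest to *Fos*, at 0.175, followed by *Fosl2* (0.259) and *Junb* (0.264), and *Ier3* was the farthest, at 1.20. Values were not scaled, so a larger change in the same direction also adds distance. The SD of log2 CPM over the hearts was 2.0 for *Ier3* and 0.725 for *Fos*. *Jund* (0.732) and *Ier2* (0.701), whose log2 fold changes were negative, were nearer by this measure than *Ier3*. These distances are descriptions over 6 hearts, and part of each comes from the difference between genotypes.

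Of the other cell types examined, the erythroid marker sum separated by genotype, and the endothelial and macrophage sums overlapped. The epicardial sum separated only with *Aldh1a2* included. The erythroid marker sum was 28.1, 283 and 164 CPM in *Smyd1-KO* hearts 1 to 3 and 750 to 1002 CPM in WT hearts, with 3 of 10 markers called lower. At an unadjusted *P* under 0.05 by edgeR 9 of the 10 were lower, against 11.9% of all genes tested. In 9 of the 10 every *Smyd1-KO* heart was below every WT heart, against 15.5% of all genes. The epicardial and proepicardial sum was 141 to 266 CPM against 106 to 129 CPM, with 0 of 6 markers called by edgeR and 2 at an unadjusted *P* under 0.05. In 1 of the 6, *Upk3b*, every *Smyd1-KO* heart was above every WT heart. The lowest *Smyd1-KO* sum, 141 CPM in heart 1, included 32.6 CPM of *Aldh1a2*. The sum of WT heart 1, 122 CPM, included 1.997 CPM of this gene. *Aldh1a2* itself overlapped between genotypes and reached 29.6 CPM in WT heart 3. Macrophage markers summed to 8.41 to 10.5 CPM in *Smyd1-KO* and 7.94 to 10.9 CPM in WT hearts. Of these, 4 of 8 were too low to test, and no marker was at 0 in all hearts. The part of these cells in the differences was not tested.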

How the data were processed

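RNA was taken from individual whole hearts, and poly A libraries were sequenced. Per the labels, the authors aligned reads with STAR to mm10 and used DESeq2; the counting tool and its strand setting are not given in the sources used here. The deposited table holds raw counts per gene, from which every result here was computed. A deposited table of normalized signal, in which the authors divided counts by 1 size factor per heart, was used only for a check of those factors. Columns were matched to hearts by their names. Genes were filtered by filterByExpr, scaled by TMM and tested by edgeR 4.0.16 (R 4.3.3, quasi-likelihood, 6 hearts, no covariates) with Benjamini-Hochberg adjustment over 19372 genes. Calls required an adjusted *P* under 0.05 and a log2 difference of 0.5 or more in size. The biological coefficient of variation was 22.5%. CPM used TMM library sizes, and exonic lengths and coordinates came from GENCODE M21 (GRCm38). Depth was 48627825 to 64217529 reads per heart. *P* values and intervals reflect the spread between 3 embryos per genotype, which edgeR estimates for each gene partly from the other genes. The script was tested on simulated data.

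All 10 genes were named, with every called gene of 6 related lists that had 5 or fewer, the 3 genes most like *Fos*, and *Smyd1*. The genes and lists were chosen with earlier results of these data known. Alternatives were DESeq2 1.42.0, RLE scaling, no filter, at least 10 reads in every heart, no fold limit, a replicate block, and each heart left out in turn.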

Additional observations from a re-analysis of the deposited data

How the results depend on the processing

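The 10 genes gave 96 results on their own side of the threshold and direction, 18 that lost the call, 3 that gained it and 3 that reversed, and the called genes of the related lists gave 73 and 47 that lost it. The setting with no fold limit used the reported fit itself, so its results are among the unchanged ones and are not a separate check. The reversals were of *Fosl1*, at -0.000543 with the replicate block, -0.17 without *Smyd1-KO* heart 3 and -0.03 without WT heart 3 (range -0.17 to 0.15 without 1 heart). *Ier3* was called in every fit. The DESeq2 fit called 1747 genes (821 of them shared with edgeR's 830) and 5 of the 10 genes. It called 8 other immediate early genes (7 higher, 1 lower), 2 bZIP factors and 3 upstream genes (all higher). It also called 3 feedback inhibitors (2 higher, 1 lower, against 2 and 0 by edgeR). The AP-1 targets gave 3 (1 higher, 2 lower, against 1 and 0 by edgeR). The heat shock genes gave 3 (2 higher, 1 lower, against 0 and 1 by edgeR). With no filter on low counts 7, 2 and 2 of the other immediate early, bZIP and upstream genes were called. In that fit 2 feedback inhibitors were called higher and 1 lower. Leaving out 1 heart gave 97 to 1256 genes in all, 1 to 5 of the 10, 1 to 5 other immediate early genes, 0 to 2 bZIP factors, 0 to 3 upstream genes, 0 to 2 feedback inhibitors, 0 of the AP-1 targets throughout (3 or 4 at an unadjusted *P* under 0.05) and 0 to 3 heat shock genes. The cause of these moves was not tested. The highest total, 1256, was without *Smyd1-KO* heart 1.

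Hearts of the same number did not deviate together (correlations -0.216, -0.0538 and -0.182, against a mean of 0.0733 for hearts of different number), and no WT heart correlated best with its own number, so the numbers were not taken as pairs. Deviations were taken from the mean of each genotype, which ties the 2 kinds of correlation to each other. They therefore do not settle whether hearts were paired in some way. The replicate block called 59 genes by edgeR, 1 of the 10 (*Ier3*, log2 fold change 3.64, adjusted *P* = 0.0307), 1 other immediate early gene, and 0 bZIP, 0 upstream, 0 feedback, 0 AP-1 target and 0 heat shock genes (2, 6, 6, 3 and 3 at an unadjusted *P* under 0.05).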

Other observations

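Several related genes that missed the threshold lay without overlap between genotypes, and all were chosen after their values were seen. Among all genes tested, 31.3% did not overlap in either direction. Of the 32 other immediate early genes, called ones included, 11 had every *Smyd1-KO* heart higher and 3 had every one lower. *Trib1* (log2 fold change -0.33, adjusted *P* = 0.0834 by edgeR) and *Nr4a2* (-0.42, 0.207) were among the lower ones. *Egr3*, a relative of *Egr1*, had a log2 fold change of 1.11 (SE 0.324, adjusted *P* = 0.0906 by edgeR). *Plk2*, a polo-like kinase, and *Klf6*, a zinc finger factor, had log2 fold changes of 0.83 (adjusted *P* = 0.0546) and 0.64 (0.0705). In the ERK arm, *Map2k1* (0.52, 0.0606), *Mapk3* (0.37, 0.0713) and *Map2k2* (-0.27, 0.0756), which encode MEK1, ERK1 and MEK2, did not share a direction. *Dusp8*, a phosphatase of JNK and p38, had a log2 fold change of -1.42 (adjusted *P* = 0.0636), opposite in sign to *Dusp4*.

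*Egr2*, known for its expression in hindbrain segments, was at 8.19, 1.23 and 0.473 CPM in *Smyd1-KO* hearts 1 to 3 and at 0.201, 0.299 and 0.0751 CPM in WT hearts (adjusted *P* = 0.0790 by edgeR). It was highest in *Smyd1-KO* heart 1, the heart with the neural genes, and the part of neural tissue in its value was not tested.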
